A study of Mus musculus with 6 samples.

Results

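Interferon-stimulated genes were examined in primary mouse embryonic fibroblasts that differ at exon 2 of Cas (p130Cas, encoded by Bcar1), a docking protein of integrin adhesions. The set held 40 genes, taken by symbol, in a choice made with earlier results of these data known: sensors of viral RNA, transcription factors and signalling proteins, the IFIT and OAS families, other antiviral effectors, GTPases of host defence, and genes of antigen processing. Of these, 39 had a probe set, a group of short probes for a transcript, and 35 passed the intensity filter, which kept the upper 50% of probe sets by mean level. Dhx58, Oas3, Mx1 and Mx2 lay below it, and Oas1g was not analysed here. The members had 69 probe sets, 53 of them above the filter, out of 45101 on the array. Over the whole array 11373 genes were tested, each represented, like the members, by its probe set with the highest mean.

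The 6 Affymetrix arrays came from 2 wild-type (Cas exon 2+/+), 2 heterozygous (Cas exon 2+/∆) and 2 homozygous (Cas exon 2∆/∆) embryos of heterozygote intercrosses, collected at 12.5 days post coitum. The deletion is in the germline, so every cell of a homozygous embryo carries it. Heads and inner organs were removed for genotyping, and the cells that grew from the rest of each body were cultured without further treatment in medium with fetal calf serum. B6 is the strain label of 5 arrays, and the labels used here name no strain for wild type 1. Each array held 2 µg of RNA from 1 embryo, so p-values measure the spread between embryos with their cultures, and the number of arrays limits the precision. The stated question was how homozygous cells differ from both other genotypes.

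Interferons are cytokines that cells secrete after their sensors detect viral nucleic acid. Type I interferon acts through its receptor and the kinases Jak1 and Tyk2 on transcription factors that include STAT2 and IRF9 and bind the interferon-stimulated response element (ISRE) in the promoters of their targets, while interferon-gamma acts on a different site (GAS). The targets block viral replication, raise antigen presentation and act back on the signal. In fibroblasts a low tonic level of type I interferon is known to keep many of these genes expressed without infection.

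The ISRE core was therefore looked for in the promoters of the members, as GAAA, then any 2 bases, then GAAA, on either strand of the 250 bases before each annotated start (RefSeq, GRCm38.p6). Windows were at hand for 31 members, and 13 of the 31 (41.9%) held the core, against 3.46% of 27025 genes. The GAS letters TTCNNNGAA, which read the same on both strands, were in 9 of 31 members (29.0%), against 8.13% of all genes. The sequences shown are those of the 5 members with a core whose homozygote arrays lay farthest apart, chosen after the values were seen, and of Irgm1, which holds 2 cores and whose homozygote arrays lay close together. They run 5′ to 3′ on the strand of the gene, and capitals mark the ISRE cores, read as their reverse complement where the core is on the other strand.
Ifit1: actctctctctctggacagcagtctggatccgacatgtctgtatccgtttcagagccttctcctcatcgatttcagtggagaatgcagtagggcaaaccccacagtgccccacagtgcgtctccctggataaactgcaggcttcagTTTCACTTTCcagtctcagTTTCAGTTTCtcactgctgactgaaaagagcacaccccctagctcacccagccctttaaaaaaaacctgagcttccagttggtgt
Ifit3: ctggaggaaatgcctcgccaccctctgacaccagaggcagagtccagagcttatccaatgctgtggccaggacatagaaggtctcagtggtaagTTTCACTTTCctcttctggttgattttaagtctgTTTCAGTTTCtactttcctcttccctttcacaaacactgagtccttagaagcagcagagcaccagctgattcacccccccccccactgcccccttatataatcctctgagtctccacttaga
Rsad2: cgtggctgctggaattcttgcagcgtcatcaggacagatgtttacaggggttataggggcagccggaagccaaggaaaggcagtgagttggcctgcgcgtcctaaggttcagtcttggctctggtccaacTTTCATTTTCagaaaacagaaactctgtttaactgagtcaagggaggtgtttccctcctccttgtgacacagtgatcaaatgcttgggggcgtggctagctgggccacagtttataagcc
Bst2: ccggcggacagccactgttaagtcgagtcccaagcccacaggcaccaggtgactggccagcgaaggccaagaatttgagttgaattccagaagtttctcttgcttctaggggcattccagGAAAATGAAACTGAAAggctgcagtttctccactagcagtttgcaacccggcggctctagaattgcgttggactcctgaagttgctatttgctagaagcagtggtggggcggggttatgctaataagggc
Gbp3: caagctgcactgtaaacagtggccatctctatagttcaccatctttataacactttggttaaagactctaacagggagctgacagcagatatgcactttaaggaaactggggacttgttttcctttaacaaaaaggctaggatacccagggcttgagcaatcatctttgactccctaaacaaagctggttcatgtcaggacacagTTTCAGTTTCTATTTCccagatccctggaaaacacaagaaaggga
Irgm1: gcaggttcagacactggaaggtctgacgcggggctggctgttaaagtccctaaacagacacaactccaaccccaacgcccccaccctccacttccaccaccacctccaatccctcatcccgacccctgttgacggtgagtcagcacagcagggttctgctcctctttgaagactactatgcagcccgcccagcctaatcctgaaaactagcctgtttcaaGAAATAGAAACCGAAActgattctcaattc
The Ifit1 window is chr19:34640639-34640888 on the plus strand, and its 2 cores lie between 104 and 76 bases before the start. That of Ifit3 (chr19:34583279-34583528, plus strand) holds 2 cores between 156 and 113 bases before the start used. The annotated extent of Ifit3 begins upstream of this window, at 34583119, so the window precedes a later start. Rsad2 (chr12:26456453-26456702, minus strand) has 1 core, 120 to 111 bases before the start. In Bst2 (chr8:71537473-71537722, minus strand) 2 overlapping cores span bases 130 to 115, and a GAS match overlaps them. In Gbp3 (chr3:142559794-142560043, plus strand) 2 overlapping cores span bases 45 to 30, and in Irgm1 (chr11:48871421-48871670, minus strand) bases 30 to 15. A second annotated start of Gbp3 had no core. A match is only a match of letters, and no binding was measured here.

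The arrays differed in ways that the genotype labels do not give. Bcar1 itself was at a log2 intensity of 9.37 and 8.42 in the wild types, 8.19 and 8.32 in the heterozygotes and 8.08 and 8.43 in the homozygotes, and since the position of its probes with respect to the deleted exon is unknown here, it checks nothing about the deletion. Xist was above the mean of 3 Y-linked genes in wild type 1 and both heterozygotes, and below it in wild type 2 and both homozygotes, so sex and genotype cannot be told apart between heterozygotes and homozygotes. Wild type 1 had the lowest value of the 6 arrays in 26.6% of all genes, and homozygote 1 the highest in 17.9%. Fibroblast markers were present on every array, with 11 of 11 above the filter and a summed deposited intensity between 57690 and 79530, and wild type 1 was the lowest array for 8 of them. Skeletal muscle markers summed to 3452 in wild type 1, with Acta1 as the brightest, and to between 195 and 996 on the other arrays. Neural and glial markers summed to 446 and 439 in the homozygotes and to between 1261 and 2314 elsewhere, and 0 of 4 were above 0 in the main comparison, with a median of -1.25. The part of these cell types in the results was not tested. Of the markers of T and NK cells 1 of 7 passed the filter, and of those of B cells 0 of 3.

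Macrophage markers were highest and lowest on the same arrays as the interferon-stimulated genes and are given here beside them. Of 25 markers, 22 passed the filter and 3 (Itgam, Cx3cr1 and Aif1) did not, and none was listed at 0. Their summed deposited intensity was 7881 in wild type 1, 14990 in wild type 2, 12470 and 13010 for the heterozygotes, 28360 in homozygote 1 and 16400 in homozygote 2. Homozygote 1 had the highest value for 22 of the 22 and wild type 1 the lowest for 18. In the main comparison 22 of 22 were above 0 with a median of 1.25, and 0 passed an adjusted p under 0.05 (limma). Both homozygotes lay above the other 4 arrays for 9 of 22, against 3.16% of all genes. Relative to each gene's mean, the median marker was at 0.21 in homozygote 2, 0.285 in wild type 2 and -0.31 and -0.50 in the heterozygotes. The colony-stimulating factor receptor Csf1r was at 7.20 and 9.06 in the wild types, 8.21 and 7.77 in the heterozygotes and 9.47 and 8.99 in the homozygotes, and the scavenger receptor Msr1 was at 5.29 and 5.47, 4.98 and 5.93, and 8.49 and 6.30. Fewer cells of a type and less RNA per cell cannot be told apart in such samples, and the part of macrophage RNA in the results on the interferon-stimulated genes was not tested.

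The interferon-stimulated genes were highest in the cells of 1 homozygous embryo and lowest in those of 1 wild-type embryo. Relative to each gene's mean over the 6 arrays, the median of the 35 members was -0.82 and 0.09 log2 units in wild type 1 and 2, 0.10 and -0.13 in the heterozygotes, and 1.01 and -0.09 in the homozygotes. Homozygote 1 thus stood above the other 5 arrays, wild type 1 below them, and the remaining 4, homozygote 2 among them, lay close together. Homozygote 1 was the highest array for 30 of 35 members, against 17.9% of all genes, and wild type 1 the lowest for 27 of 35, against 26.6%. Both held for 24 of 35 members and for 7.48% of all genes, and homozygote 1 was over 0.5 log2 units above each other array for 23 of 35, against 2.76%. Oas2 is in each of these counts although it passed the filter only through the homozygotes, so for Oas2 they cannot be set against all genes.

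**Figure D1:**
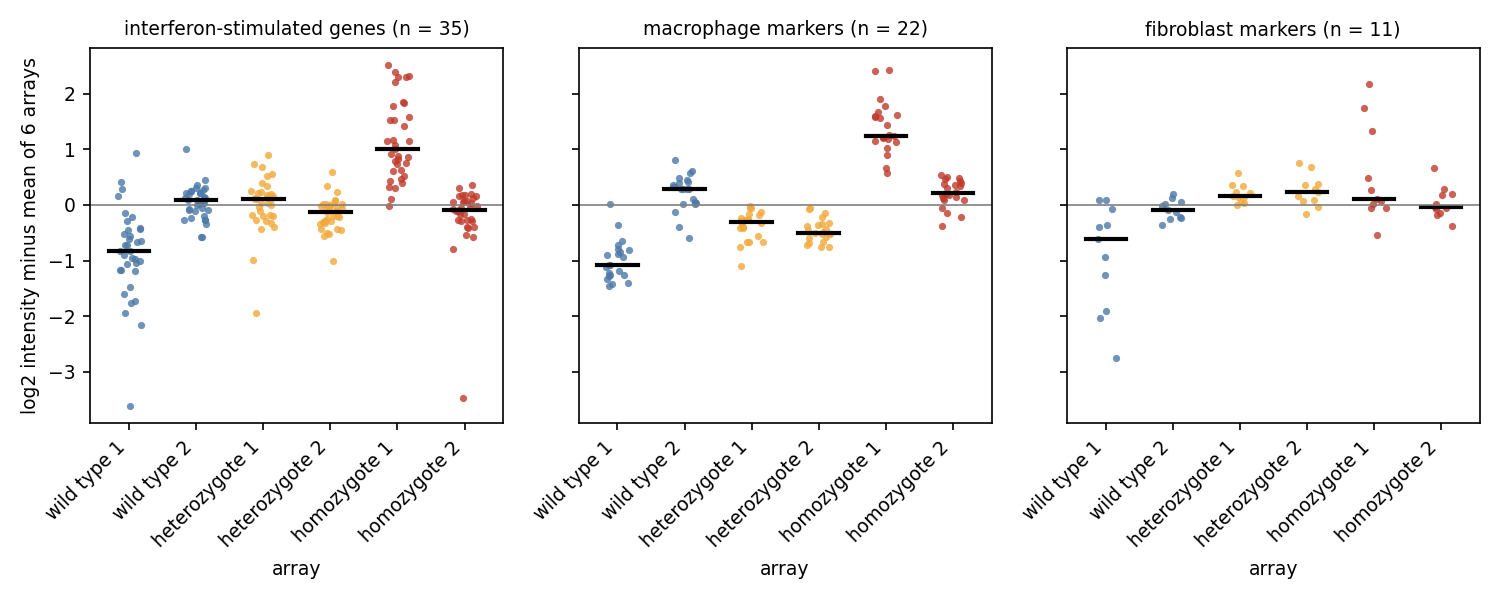
Log2 intensity minus the gene's mean over the 6 arrays (vertical axis) on each array (horizontal axis) for 35 interferon-stimulated genes, 22 macrophage markers and 11 fibroblast markers. Each point is a gene and each bar the median of the list. The interferon-stimulated genes have their highest median, 1.01, in homozygote 1 and their lowest, -0.82, in wild type 1, and the macrophage markers have theirs in the same arrays (1.24 and -1.08).

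The median distance between the homozygotes, and that between the wild types, was larger than the median differences between genotypes given below. The former is between single arrays and the latter between means of arrays, which vary less, so the measures are unlike. Homozygote 1 exceeded homozygote 2 by a median of 1.03 log2 units (2.04-fold) over the members, and wild type 2 exceeded wild type 1 by 0.98 (1.97-fold), while the heterozygote arrays differed by a median of 0.22. More than 1 log2 unit separated the homozygotes, with homozygote 1 on top, for 19 of 35 members, against 4.34% of all genes. Wild type 2 was more than 1 unit above wild type 1 for 17 of 35 (6.08% of all genes), and the heterozygotes were more than 1 unit apart for 3 of 35 (4.41%). The members that split the homozygotes more also split the wild types more. Spearman's rho between these 2 differences was 0.70 across the 35 members and 0.02 across all 11373 genes, a description across genes, which are not independent and share the same 4 arrays. From wild type 1 to homozygote 1 the median member differed by 1.83 units (3.54-fold).

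**Figure D2:**
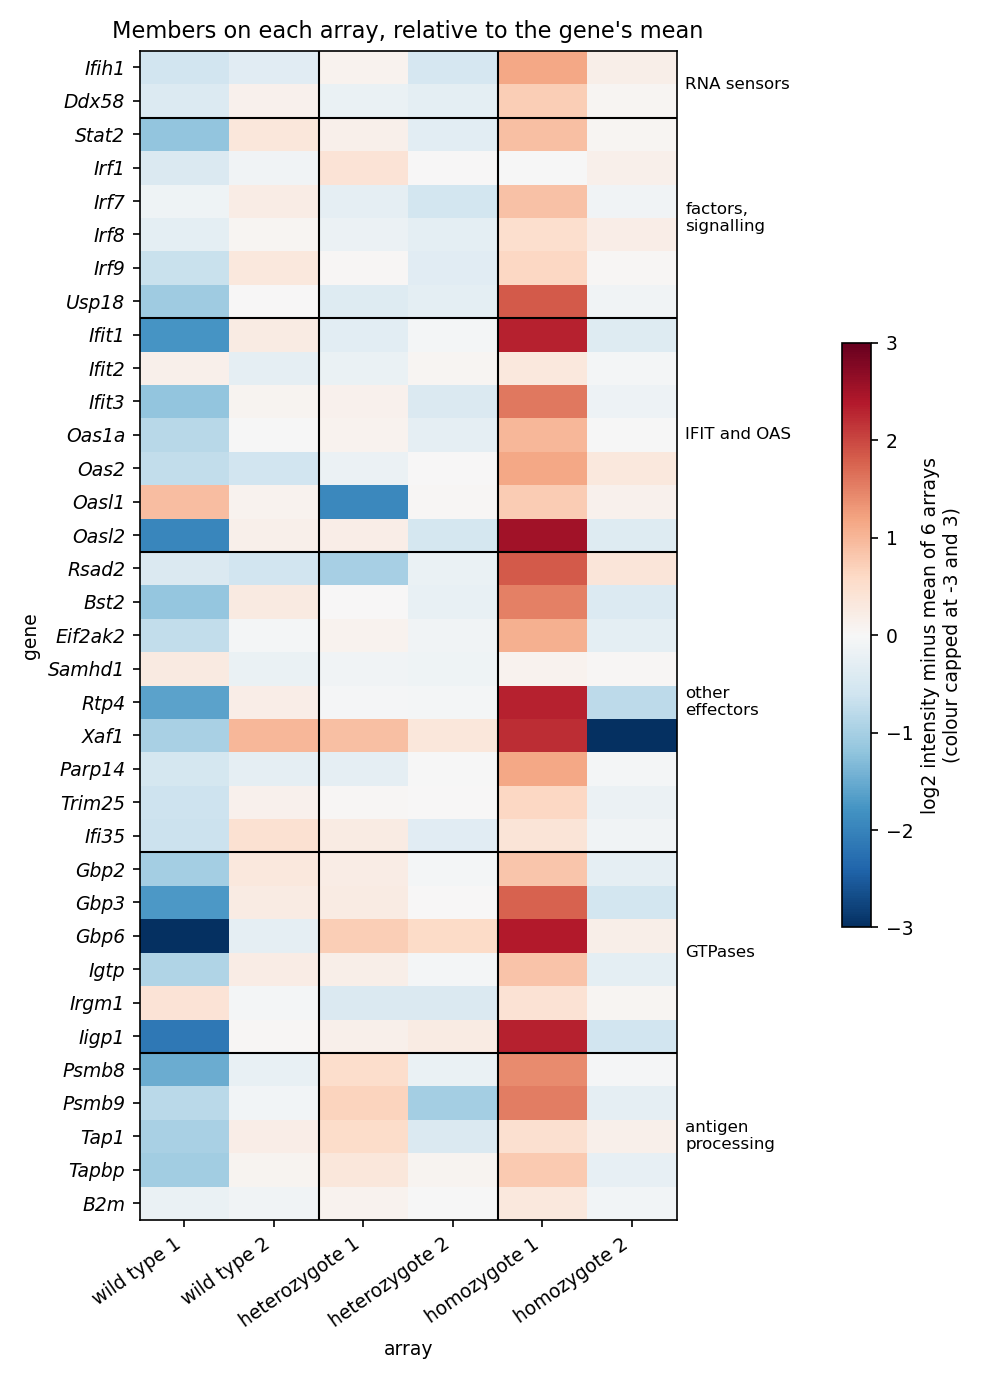
Log2 intensity minus the gene's mean over the 6 arrays, as colour (capped at -3 and 3), for the 35 members tested (rows, by role) on each array (columns, with lines between genotypes). Red is highest in the homozygote 1 column and blue deepest in the wild type 1 column for most rows, and the dark blue cell in homozygote 2 is Xaf1.

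Between genotypes no member passed the test. In homozygotes against the mean of wild type and heterozygotes, the comparison the study states, limma called 0 of 22519 probe sets (0%) and 0 of 35 members, each with an adjusted p of 1. An unadjusted p under 0.05 was reached by 560 probe sets (2.49%), and by 4 of 35 members with a higher level (Ifih1, Irf8, Oas2 and Rsad2), against 1.1% of all genes, while 0 were lower (1.09%). Oas2 is in this count although it passed the filter only through the homozygotes, so it cannot be set against the share of all genes. The difference was above 0 for 34 of 35 members, with a median of 0.66 and a range from -0.95 to 1.92, against 47.4% of all genes and a median of -0.013. Oas2 and Oasl1, both under the filter level without the homozygotes, are among the 34. Without homozygote 1 the median was 0.14 and 22 of 35 members were above 0, and without homozygote 2 it was 1.25 with 35 of 35 above 0. Homozygote 2 lay within the range of the 4 wild-type and heterozygote arrays for 30 members, above it for 4 and below it for 1. The shares of all genes were not computed for this range or for fits with an array left out. Those counts therefore have no background to be set against.

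The same 4 members, Ifih1, Irf8, Oas2 and Rsad2, were those with both homozygotes above the other 4 arrays, against 3.16% of all genes, and 0 had both below (3.61%). Oas2 is in this count only because the homozygotes brought it over the filter. Ifih1 encodes MDA5, a cytoplasmic sensor of long double-stranded RNA. Its normalised log2 intensity was 7.00 and 7.22 in the wild types, 7.67 and 7.05 in the heterozygotes and 8.71 and 7.74 in the homozygotes. Homozygote 1 was well above the rest, and homozygote 2 was just above heterozygote 1. The difference was 0.99 (SE 0.34, 1.99-fold, limma adjusted p = 1), and it was 0.51 without homozygote 1. Oas2, a synthetase of the oligoadenylate messenger that activates RNase L, was at 4.16 and 4.32 in the wild types, 4.71 and 4.89 in the heterozygotes and 6.05 and 5.19 in the homozygotes. Its arrays were ordered by genotype without overlap, and the difference was 1.10 (SE 0.28, 2.14-fold, limma adjusted p = 1), or 0.67 without homozygote 1. Oas2 passed the filter only through the homozygotes, since its other 4 arrays averaged 4.52, under the level of 4.57. Among the 35 members the other 4 arrays of Oasl1 also averaged under it (4.38), with heterozygote 1 at 2.66. The homozygotes of Oasl1 (mean 5.04) were not above its wild types (mean 5.11).

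Rsad2 encodes viperin, an enzyme that makes a chain-terminating nucleotide against viral polymerases. It was at 4.71 and 4.58 in the wild types, 4.16 and 4.96 in the heterozygotes and 7.00 and 5.51 in the homozygotes, a difference of 1.65 (SE 0.45, 3.15-fold, limma adjusted p = 1) that was 0.90 without homozygote 1. The gap between the homozygotes, 1.49, was wider than that between homozygote 2 and any other array. The 2 other Rsad2 probe sets gave 0.41 each, 1 of them from below the filter, and homozygote 2 was not separated in them. Irf8, a transcription factor of myeloid cells that interferon-gamma induces, was at 5.02 and 5.36 in the wild types, 5.13 and 5.02 in the heterozygotes and 5.82 and 5.51 in the homozygotes. Its homozygote arrays were only 0.32 apart, and the difference was 0.53 (SE 0.21, 1.45-fold, limma adjusted p = 1), or 0.37 without homozygote 1. A second Irf8 probe set, below the filter, gave -0.095, with the homozygotes at 5.20 and 2.68.

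**Figure D3:**
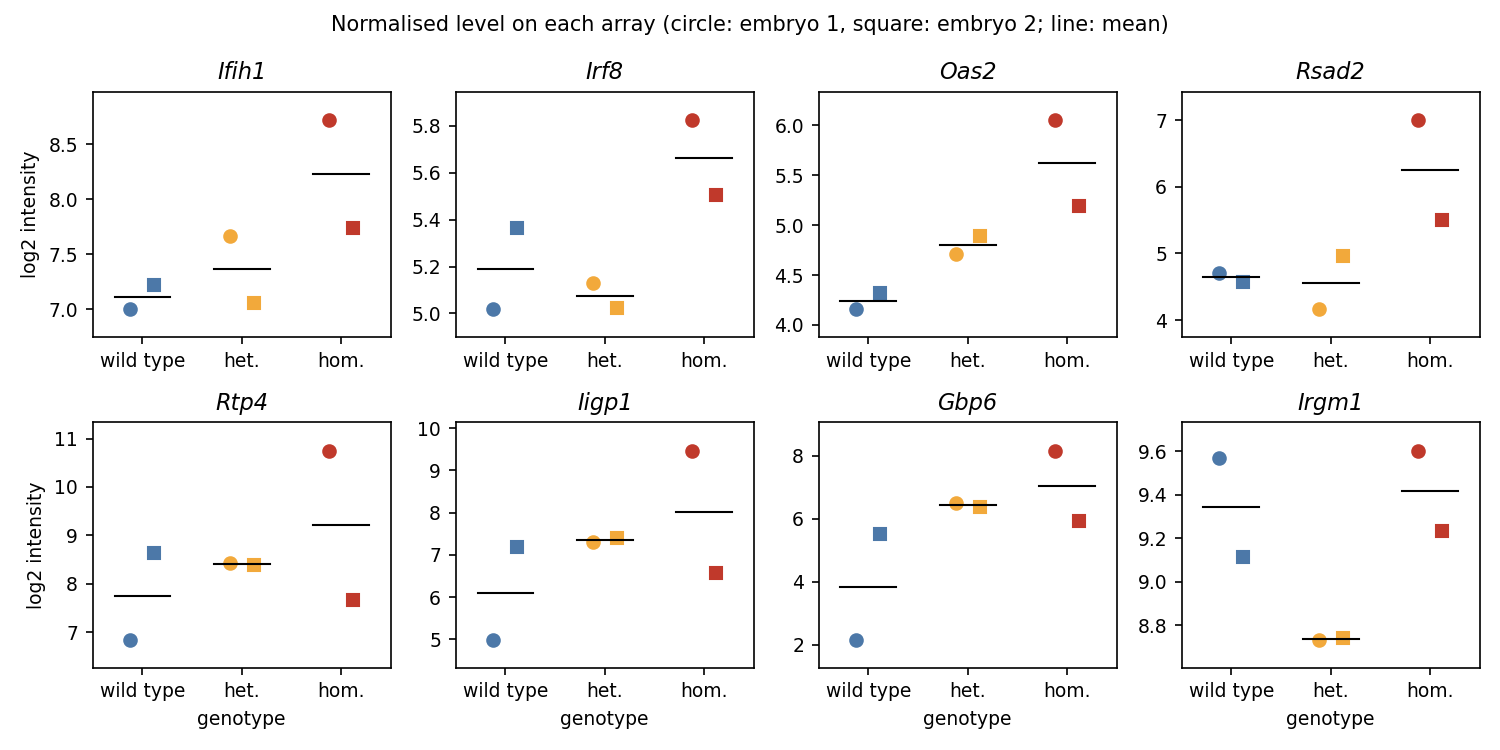
Normalised log2 intensity (vertical axis, its own range in each panel) by genotype for 8 members, with a circle for embryo 1, a square for embryo 2 and a line for the mean of 2. The 4 members in the upper row have both homozygotes above the other arrays, while in the lower row homozygote 2 lies below both heterozygotes for Rtp4, Iigp1 and Gbp6, and wild type 1 lies almost level with homozygote 1 for Irgm1.

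The other RNA sensor tested, Ddx58 (RIG-I, which recognises RNA with a triphosphate end), was also highest in homozygote 1. It was at 8.24 and 8.78 in the wild types, 8.45 and 8.36 in the heterozygotes and 9.38 and 8.70 in the homozygotes, a difference of 0.58 (SE 0.28). Homozygote 2 lay below wild type 2, so the groups overlapped. Dhx58 (LGP2), a regulator of both sensors, had 3 probe sets, all below the filter. That with the highest mean stayed between 3.93 and 4.23 on all arrays, whereas another, singled out after its values were seen, was at 1.34 and 2.27 in the wild types, 5.03 and 2.99 in the heterozygotes and 6.36 and 4.71 in the homozygotes. Such low intensities carry large relative error, and the probe sets of Dhx58 disagree.

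All 6 transcription factors and signalling proteins were above 0 in the main comparison, between 0.11 and 1.30, with a median of 0.55. Usp18, the protease that removes ISG15 and restrains the type I receptor, had the largest value of them. It was at 6.71 and 7.78 in the wild types, 7.37 and 7.47 in the heterozygotes and 9.61 and 7.66 in the homozygotes, with a difference of 1.30 (SE 0.57). Homozygote 1 stood 3.84-fold above homozygote 2, which was lower than wild type 2. Irf7, the factor that amplifies type I interferon production, was at 6.50 and 6.85 in the wild types, 6.36 and 6.08 in the heterozygotes and 7.51 and 6.52 in the homozygotes (0.57, SE 0.32). Here too homozygote 2 was below wild type 2, and both heterozygotes were below both wild types. Stat2 and Irf9, which take part in binding the ISRE, differed by 0.73 (SE 0.48) and 0.50 (SE 0.34), and both were lowest in wild type 1. Irf1, an early target of interferon-gamma, differed by 0.11 (SE 0.22) and was highest in heterozygote 1, not in homozygote 1.

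The IFIT proteins bind viral RNA and the OAS enzymes sense double-stranded RNA. All 7 tested members of these families were above 0 (47.4% of all genes), with a median of 1.06 and a range from 0.19 (Ifit2) to 1.60 (Oasl2). Oas2 and Oasl1 are among the 7 although they were under the filter level without the homozygotes. The median distance between the homozygotes was 2.03-fold. Ifit3, at 7.16 and 8.43 in the wild types, 8.47 and 7.91 in the heterozygotes and 9.92 and 8.18 in the homozygotes, differed by 1.06 (SE 0.57). Oas1a, at 6.90 and 7.73, 7.84 and 7.48, and 8.74 and 7.72, differed by 0.74 (SE 0.38). In both genes wild type 1 was the lowest array and homozygote 2 lay between the others.

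Ifit1 and Oasl2 spread most within this group. Ifit1, named after its values were seen for its promoter shown above, was at 5.88 and 7.89 in the wild types, 7.33 and 7.59 in the heterozygotes and 9.95 and 7.26 in the homozygotes. Homozygote 1 was 6.44-fold above homozygote 2 and 16.7-fold above wild type 1, and homozygote 2 was below both heterozygotes and wild type 2. The genotype difference of 1.43 therefore had an SE of 0.84, and it was 0.09 without homozygote 1. Oasl2 had the same order of extremes, with homozygote 1 at 7.50-fold homozygote 2 and 22.1-fold wild type 1. Ifit2 spanned only 6.98 to 7.57 over all arrays, and Oasl1 was highest in wild type 1 (5.53) and lowest in heterozygote 1 (2.66). Oas3, below the filter, stayed between 1.94 and 3.84.

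Of the 9 other antiviral effectors tested, 8 were above 0, with a median of 0.59. Parp14, an ADP-ribosyltransferase, was at 5.74 and 5.98 in the wild types, 5.98 and 6.23 in the heterozygotes and 7.41 and 6.19 in the homozygotes (0.82, SE 0.36). Eif2ak2 encodes PKR, the kinase that stops translation on double-stranded RNA. It was at 7.33 and 7.99, 8.17 and 7.95, and 9.13 and 7.76 (0.59, SE 0.41), and its other 2 probe sets gave 0.80 and 0.58. In both genes homozygote 1 alone was high and homozygote 2 lay among the other genotypes, so that without homozygote 1 the differences were 0.21 and -0.099.

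Rtp4, a chaperone of receptors with antiviral action, was also named after its values were seen. It was at 6.85 and 8.64 in the wild types, 8.42 and 8.39 in the heterozygotes and 10.75 and 7.66 in the homozygotes. Its homozygotes, 8.53-fold apart, lay on opposite sides of both heterozygotes, and the difference of 1.13 (SE 0.89) was -0.42 without homozygote 1. Bst2 (tetherin, which holds budding virions at the cell surface) had the same order of extremes, with 0.83 (SE 0.62) and -0.14 without homozygote 1. Samhd1, which depletes nucleotides, varied little. It lay between 7.57 and 8.05 on all arrays and was highest in wild type 1. Its 4 tested probe sets gave between -0.30 and 0.11. Trim25, a ubiquitin ligase of RIG-I signalling, and Ifi35 differed by 0.34 (SE 0.32) and 0.22 (SE 0.37). Mx1 and Mx2 were below the filter, between 3.15 and 5.20 and between 1.82 and 4.91.

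Xaf1, a proapoptotic binding partner of XIAP, was the member with a difference below 0. Its probe set with the higher mean was at 7.09 and 9.08 in the wild types, 8.97 and 8.40 in the heterozygotes and 10.28 and 4.60 in the homozygotes. The gap of 5.67 between the homozygotes was the largest with homozygote 1 on top among all 11373 genes, and the difference was -0.95 (SE 1.49, limma adjusted p = 1). The other Xaf1 probe set did not have the low value. It was at 6.64 and 7.77, 7.30 and 7.50, and 8.92 and 8.22, with both homozygotes above the other 4 arrays and a difference of 1.27 (SE 0.37, limma adjusted p = 1). The direction of Xaf1 therefore depends on the probe set.

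The GTPases of host defence attack the vacuoles of intracellular pathogens. They had the widest distance between the homozygotes, with a median of 3.22-fold, and between the wild types, with 3.13-fold. Their median difference was 0.67, and 6 of 6 were above 0. Gbp6 differed by 1.92 (SE 1.00, 3.78-fold, limma adjusted p = 1), with a deposited intensity of 2.85 in wild type 1, near the pseudocount of 1.78. Without wild type 1 the difference was 1.07, and with a pseudocount of 16 it was 1.38. It was at 2.17 and 5.51 in the wild types, 6.52 and 6.36 in the heterozygotes and 8.17 and 5.95 in the homozygotes, so wild type 1 was far below every other array and homozygote 2 was below both heterozygotes. A second Gbp6 probe set gave 1.40 (SE 0.52), with wild type 1 again lowest at 3.03.

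Iigp1, an immunity-related GTPase, was at 5.00 and 7.18 in the wild types, 7.31 and 7.39 in the heterozygotes and 9.47 and 6.57 in the homozygotes (1.30, SE 0.90). Homozygote 1 was 22.1-fold above wild type 1, whereas homozygote 2 was below wild type 2 and both heterozygotes. Without homozygote 1 its difference was -0.15, and those of Gbp2, Gbp3 and Igtp were also below 0 (-0.14, -0.24 and -0.16). Irgm1, a regulator of the other immunity-related GTPases, had a different order. It was at 9.57 and 9.11 in the wild types, 8.73 and 8.74 in the heterozygotes and 9.60 and 9.24 in the homozygotes, so the heterozygotes were low and wild type 1 was high (0.38, SE 0.23).

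The genes of antigen processing feed peptides to MHC class I molecules. All 5 were above 0, between 0.17 and 1.05, with a median of 0.48. Psmb8, a subunit of the immunoproteasome, was at 5.96 and 7.21 in the wild types, 7.96 and 7.24 in the heterozygotes and 8.87 and 7.41 in the homozygotes (1.05, SE 0.53). Psmb9, a further subunit, was at 4.45 and 5.18, 5.95 and 4.26, and 6.80 and 5.00 (0.94, SE 0.65). Both subunits had their highest value in homozygote 1, and heterozygote 1 came next. The peptide transporter gene Tap1, which shares a divergent promoter region with Psmb9, was at 6.95 and 8.12, 8.47 and 7.47, and 8.38 and 8.07 (0.48, SE 0.42), with its highest value in heterozygote 1. B2m, the invariant chain of MHC class I, varied least of these, from 12.75 to 13.27 (0.17, SE 0.21), and Tapbp, the tapasin gene, differed by 0.40 (SE 0.42).

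**Figure D4:**
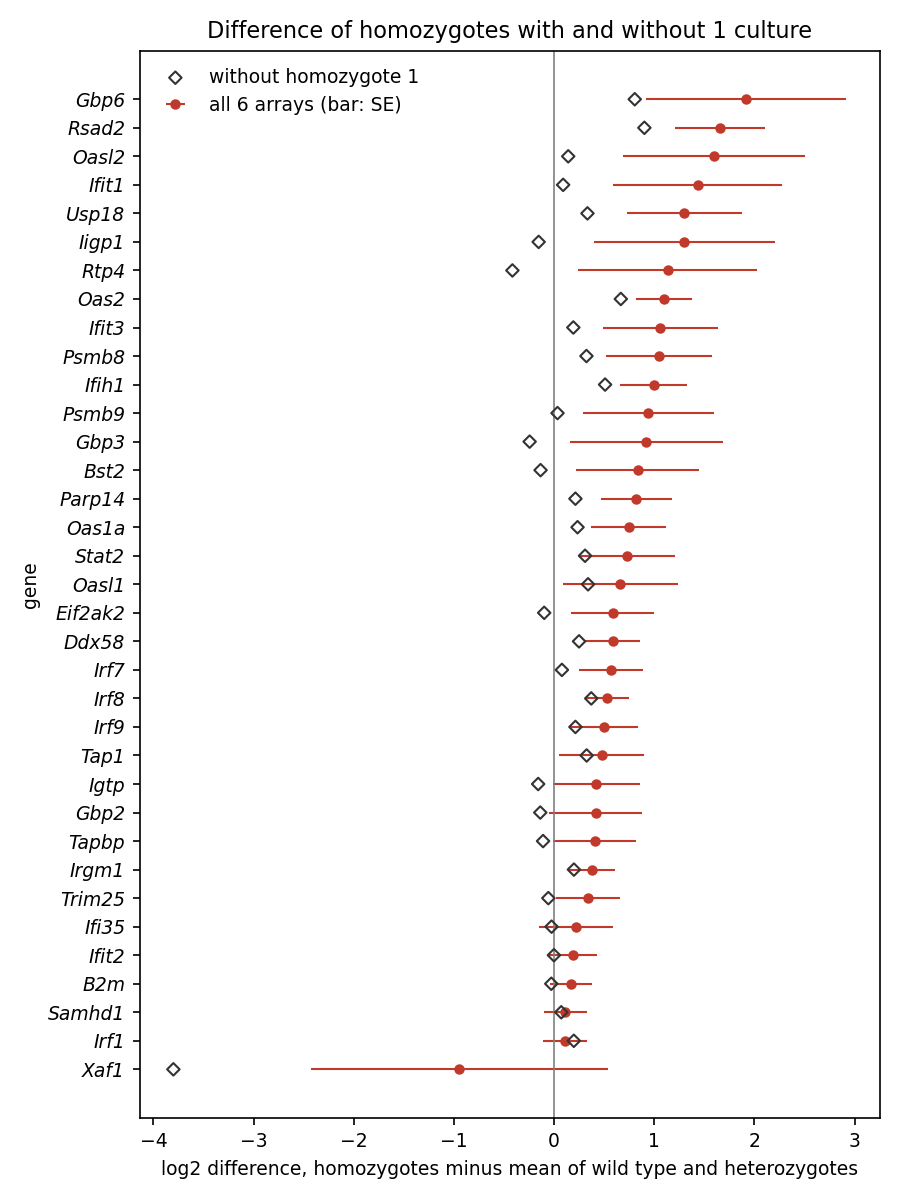
Log2 difference of homozygotes from the mean of wild type and heterozygotes (horizontal axis) for the 35 members (vertical axis), with all 6 arrays (red, bar: SE) and without homozygote 1 (open diamonds). Of the 35 differences 34 are above 0 with all arrays and 22 without homozygote 1, and the median moves from 0.66 to 0.14.

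Against wild type alone, homozygotes gave a median of 0.79 over the members, with 33 of 35 above 0 (47.5% of all genes). Limma called 0 of 22519 probe sets (0%, with 855 or 3.8% at an unadjusted p under 0.05) and 0 members (adjusted p from 0.973 to 0.995). At an unadjusted p under 0.05, 5 of 35 members were higher (Gbp6, Ifih1, Oas2, Psmb8 and Rsad2), against 1.66% of all genes, and 0 were lower (1.62%). Oas2, which passed the filter only through the homozygotes, is among them, among the 33 above 0 and among the 9 separated members given next. In addition, both homozygotes lay above both wild types for 9 of 35, against 12.5%. No test was made of that count, and 0 members were separated downward (14.3% of all genes). The largest value was 3.22 for Gbp6 (SE 1.15), and its size depends on wild type 1, without which it was 1.54. The second Gbp6 probe set gave 2.42 (SE 0.60) with all arrays. Without wild type 1 the median was 0.35.

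Against heterozygotes alone the median was 0.59, and 33 of 35 members were above 0 (47% of all genes). Limma called 0 of 22519 probe sets (0%, with 488 or 2.17% at an unadjusted p under 0.05) and 0 members (adjusted p = 1 each). Irgm1, Oas2 and Rsad2 were higher at an unadjusted p under 0.05, 3 of 35 against 0.994% of all genes, and 0 were lower (0.95%). Both homozygotes lay above both heterozygotes for 11 of 35 members, against 10.5% of all genes, and 0 had both below (12.4%). Oas2 is among the 33, the 3 and the 11, and Oasl1 among the 33 and the 11, although the other 4 arrays of each averaged under the filter level. Without homozygote 1 the median was -0.043 and 16 of 35 members were above 0. The main comparison, that against wild type and that against heterozygotes share the homozygote arrays, so their values are set side by side and not counted as separate evidence.

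Heterozygotes against wild type gave the smallest median, 0.34, with 27 of 35 members above 0 (50.2% of all genes). Limma called 0 of 22519 probe sets (0%, with 1185 or 5.26% at an unadjusted p under 0.05) and 0 members (adjusted p from 0.838 to 0.997), and at an unadjusted p under 0.05 no member was higher (2.37% of all genes) or lower (1.95%). Both heterozygotes lay above both wild types for 6 of 35 members, against 17.6% of all genes. They lay below both for 3 of 35 (Irf7, Irgm1 and Oasl1), against 18.4% of all genes. The median was -0.15 without wild type 1, where 12 of 35 members were above 0. The positive direction of this comparison thus rests on wild type 1, which has no strain label.

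Among the 3 arrays with the expression of male embryos, wild type 2 is the sole control. Both homozygotes lay above it for 13 of 35 members, against 28.1% of all genes, and both below it for 1, Ifi35, against 35%. Oas2 and Oasl1, under the filter level without the homozygotes, are among the 13. Homozygote 2 was below wild type 2 for 22 of 35, with Rtp4, Iigp1 and Gbp3 among them. It was above wild type 2 for 13 of 35 members and for 5490 of all 11373 genes. Its median distance from wild type 2 was -0.18 over the members and -0.0094 over all genes. Embryo sex as a term in the fit is estimated from wild type 2 minus wild type 1 alone, 1 embryo each, so these values subtract that difference and cannot tell sex from any other difference between the 2 wild types. With it, the median of the main comparison was 0.083 and 19 of 35 members were above 0, while the share of all genes was not computed. Rsad2 was then at 1.75, Oas2 at 0.98, Ifih1 at 0.83 and Irf8 at 0.27, whereas Ifit1 was at -0.075, Gbp6 at -0.59 and Iigp1 at -0.34. Against wild type with this term, which compares the homozygotes with wild type 2, the median was 0.34.

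The genes upstream of the response had medians near 0 in the main comparison. Of 6 interferon ligands with a probe set, 0 passed the filter, and their deposited intensities lay between 0.542 and 23.4. Of 8 receptors and kinases tested, 6 were above 0 with a median of 0.092, led by Jak1 at 0.14 (SE 0.20) and Ifnar2 at 0.11 (SE 0.20), and homozygote 1 was highest for 4. Other transcription factors had 3 of 6 above 0 (median -0.022), among them Irf2 at 0.47 (SE 0.23). The pathway that induces interferon had 8 of 13 above 0 (median 0.059), and its adaptors Ticam1 and Mavs were at -0.62 (SE 0.22) and -0.46 (SE 0.25). Inhibitors had 4 of 8 above 0 (median 0.018), with the phosphatases Ptpn6, which is known from blood cells, at 0.99 (SE 0.37) and Ptpn2 at 0.22 (SE 0.20). Both homozygotes lay below the other 4 arrays for 2 of 13 genes of the induction pathway (3.61% of all genes) and above them for 1 (3.16%). Wild type 1 was the lowest array for 7 of 8 inhibitors (26.6% of all genes), 3 of 8 receptors and kinases, 3 of 6 other transcription factors and 5 of 13 pathway genes. Limma called 0 genes in any of these lists (adjusted p = 1 each). It called 0 over the whole array as well, so the test does not set these genes apart from the members.

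Further interferon-induced genes outside the 40 were likewise mostly highest in homozygote 1 and lowest in wild type 1. Of 31 tested, 28 were above 0 (47.4% of all genes) with a median of 0.56, limma called 0, and both homozygotes lay above the other 4 arrays for 6, against 3.16% of all genes. Homozygote 1 was the highest array for 22 (17.9% of all genes) and wild type 1 the lowest for 23 (26.6%). Slfn2, a regulator of immune cell quiescence, was at 6.96 and 7.42 in the wild types, 5.98 and 6.45 in the heterozygotes and 8.35 and 7.91 in the homozygotes (1.43, SE 0.26), with homozygotes less than 0.5 log2 units apart. Ifi204, an interferon-inducible DNA-binding protein, was at 5.06 and 4.50, 4.63 and 5.02, and 5.68 and 5.73 (0.90, SE 0.24). In both genes the homozygotes lay together, above all other arrays.

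Members with and without an ISRE core overlapped in how far the homozygotes lay apart. The median distance between homozygote 1 and homozygote 2 was 1.16 log2 units (range 0.37 to 2.69) for the 11 tested members with a core, 0.73 (-0.18 to 5.67) for the 18 without and 2.08 (0.86 to 3.09) for the 6 without a window. Oasl2, at 2.91, had no core in its window while Irgm1, at 0.37, had 2.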

How the data were processed

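Probe set values of 6 Affymetrix arrays were deposited as linear intensities, per the labels' protocols from biotinylated cRNA, while how probes were summarised and scaled, and with which software, is unknown here. Intensities were converted to log2(intensity + 1.78), the 10th percentile, which understates differences of dim probe sets. The arrays were quantile normalised because their log2 medians spanned 0.29, above a limit of 0.1, which removes any overall shift. After 64 control probe sets were dropped, the upper 50% of 45037 (22519, mean log2 of 4.57 or more) were tested with limma 3.58.1 in R 4.3.3, with 3 residual and 3.28 prior degrees of freedom, and p-values were adjusted by Benjamini-Hochberg over all of them (threshold 0.05). Values below the filter come from a fit without it. Probe sets were named from the platform annotation, 34945 with 1 gene, and those with several (932) were not used. Promoter windows came from RefSeq. The script was tested on simulated data. Members and gene lists were chosen with earlier results of these data known. Array values are given for members with separated homozygotes, for the 3 with the smallest p in each role, and for members opposite in sign to the median. Alternatives were scaling, pseudocount, filter, probe set mean, replicate block, embryo sex and each array left out.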

Additional observations from a re-analysis of the deposited data

How the results depend on the processing

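Scaling (none or median centring), a pseudocount of 16, the filter (none or the upper 75%) and the mean over probe sets kept 0 probe sets called and the direction of each median and of 33 of the 35 members in the main comparison. With the mean over probe sets, Samhd1 was at -0.017 and Xaf1 at 0.16. The replicate numbers did not pair the arrays (correlations of deviations -0.36, -0.14 and -0.14 over 22519 probe sets), and with a replicate block 0 probe sets were called in each comparison, with the main median at 0.66. Embryo sex as a term subtracts wild type 2 minus wild type 1, the only pair of 1 genotype that differs in sex, so these values carry that difference. With it the median against heterozygotes was -0.46, and in the main comparison these members turned below 0: Stat2 (-0.41), Irf1 (-0.14), Irf9 (-0.24), Ifit1 (-0.075), Bst2 (-0.25), Rtp4 (-0.21), Trim25 (-0.23), Ifi35 (-0.61), Gbp2 (-0.58), Gbp3 (-0.55), Gbp6 (-0.59), Igtp (-0.41), Iigp1 (-0.34), Tap1 (-0.40) and Tapbp (-0.44). Sex and other differences between the wild types cannot be told apart. Of 490 values for the 35 members under the alternatives, 458 kept their direction and 32 reversed. In 15 members none reversed.

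With each array left out in turn, probe sets called ranged from 0 to 2 in the main comparison, 0 to 2 against heterozygotes and 0 to 1 for heterozygotes against wild type, and no member was called. The median ranged from 0.23 to 1.41 against wild type and from -0.043 to 1.24 against heterozygotes. The number of members above 0, an alternative chosen after seeing the data, ranged from 22 to 35 in the main comparison, 16 to 34 against heterozygotes and 12 to 29 for heterozygotes against wild type. The lowest of these fell without homozygote 1, without homozygote 1 and without wild type 1. An array left alone in its genotype is assumed to vary like the others. Members that reversed ranged from -0.0016 to 0.38 (Ifit2), -0.14 to 1.79 (Bst2), -0.099 to 1.26 (Eif2ak2), -0.0077 to 0.23 (Samhd1), -0.42 to 2.67 (Rtp4), -3.80 to 1.88 (Xaf1), -0.057 to 0.73 (Trim25), -0.057 to 0.49 (Ifi35), -0.14 to 0.97 (Gbp2), -0.24 to 2.07 (Gbp3), -0.16 to 0.99 (Igtp), -0.15 to 2.73 (Iigp1), -0.11 to 0.91 (Tapbp) and -0.028 to 0.37 (B2m). Dhx58, Oas3, Mx1 and Mx2 were too dim for the filter, and their values have no adjusted p.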
